A study of Bubalus bubalis with 12 samples.

Results

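The data described here are the values of 5 genes that mark successive steps of male germ-cell development, GFRA1, KIT, MAEL, LDHC and TNP1, in a ChIP-on-chip series on water buffalo (Bubalus bubalis) sperm. Members were all non-control probes whose gene name equals one of these symbols, 86 probes of 177440 in all, and 5 of the 6805 genes that had at least 2 usable probes. Cryopreserved semen of 3 subfertile bulls (SF1, SF4 and SF5) was set beside that of 3 high-fertile bulls (HF2, HF3 and HF5), and each bull gave 1 array for histone H3 dimethylated at lysine 4 (H3K4me2) and 1 for histone H3 trimethylated at lysine 27 (H3K27me3). Chromatin of every bull was cross-linked and cut with micrococcal nuclease, and on each of the 12 arrays the immunoprecipitated DNA carried Cy5 and the same bull's input DNA carried Cy3, with no dye swap. Breed, age and fertility records of the bulls were not used here. Values are log2 of Cy5 (ChIP) over Cy3 (input) after the median of the array was subtracted, so 0 stands for the median probe and not for an absence of the mark. Since each preparation pools many sperm, a mark present in fewer sperm and a mark present at lower density in each cannot be told apart.

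Sperm of mammals pack most of their DNA with protamines, and some of the histones that remain are found at CpG-rich promoters. H3K4me2 lies at promoters of genes that are active or poised, including genes used earlier in spermatogenesis, and H3K27me3 is placed by Polycomb complexes at silenced developmental genes. GFRA1 is the receptor subunit through which spermatogonial stem cells of the mouse sense GDNF, and KIT is the receptor tyrosine kinase that differentiating spermatogonia need. MAEL acts in transposon silencing and the piRNA pathway, LDHC is the testis-specific lactate dehydrogenase that appears in spermatocytes and persists in sperm, and TNP1 is the transition protein that takes the place of histones in elongating spermatids before the protamines.

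The array carries cattle DNA in 60-base probes, whose coordinates refer to the cattle build HGSC Btau_3.1 of the file headers. GFRA1 had 52 probes on chromosome 26 (37094457 to 37098803), 43 of them assigned by the array to CpG islands, 5 to promoters and 4 to coding sequence. KIT had 14 probes on chromosome 6 (72739958 to 72742449), 13 in CpG islands and 1 in the promoter. MAEL had 8 probes on chromosome 3 (2475833 to 2475921), 7 in a CpG island and 1 in coding sequence, all within 89 bases. LDHC had 10 probes on chromosome 29 (27555933 to 27557859), 7 in CpG islands, 2 in the promoter and 1 in coding sequence. TNP1 had 2 promoter probes on chromosome 2 (109109981 to 109111460) and none in a CpG island. Many probes overlap one another, so the 86 probes form 19 separate runs: 9 in GFRA1, 3 in KIT, 1 in MAEL, 4 in LDHC and 2 in TNP1.

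The probes below are those of each gene with the highest or the lowest mean ratio for H3K4me2 over the 6 bulls. They show what DNA each value was read from. Each is named by the distance of its start from the first probe of its gene, in bases, and written along the plus strand of the build, and capitals mark CG dinucleotides, the sites of DNA methylation in mammals.
GFRA1 +0, chr26:37094457-37094516: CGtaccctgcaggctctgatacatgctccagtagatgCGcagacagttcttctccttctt
GFRA1 +1668, chr26:37096125-37096184: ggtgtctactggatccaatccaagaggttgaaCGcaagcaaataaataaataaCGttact
KIT +2136, chr6:72742094-72742153: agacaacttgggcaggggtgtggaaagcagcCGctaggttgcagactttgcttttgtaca
KIT +2404, chr6:72742362-72742421: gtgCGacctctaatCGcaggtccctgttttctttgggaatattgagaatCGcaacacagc
MAEL +13, chr3:2475846-2475905: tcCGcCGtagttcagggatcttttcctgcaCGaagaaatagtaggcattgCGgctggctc
MAEL +17, chr3:2475850-2475909: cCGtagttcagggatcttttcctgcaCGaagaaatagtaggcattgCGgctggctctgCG
LDHC +169, chr29:27556102-27556161: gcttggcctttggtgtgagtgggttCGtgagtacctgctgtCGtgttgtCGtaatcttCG
LDHC +1082, chr29:27557015-27557074: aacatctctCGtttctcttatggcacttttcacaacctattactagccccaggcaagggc
TNP1 +0, chr2:109109981-109110040: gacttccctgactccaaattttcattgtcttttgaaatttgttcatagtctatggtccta
TNP1 +1420, chr2:109111401-109111460: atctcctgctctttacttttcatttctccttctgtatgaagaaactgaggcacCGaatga

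In GFRA1, KIT, MAEL and LDHC all 63 pairs of overlapping neighbours shared their bases when read along the build and 0 when read against it. TNP1 has no overlapping probes, so its strand was taken from the same array design. The 2 TNP1 probes held 0 and 1 CG and had 35% and 40% G and C, against a median of 3 CG and 51.7% over all 177440 probes. The medians of the other genes were 2.5 CG in GFRA1, 3 in KIT, 4 in MAEL and 6 in LDHC. Among the motifs searched on both strands, TGACG (the core of the cAMP response element) stood in 4 of the 86 probes, all covering 1 site 2872 bases from the first GFRA1 probe, against 7.74% of all probes. TATAAA stood in 7, all covering 1 GFRA1 site at 3118 bases, against 2.18% of all probes. TGACGTCA (the full cAMP response element), GGGCGG (the GC box) and CACGTG (the E box) were in 0 of the 86, against 0.184%, 2.41% and 1.82% of all probes. These motifs were read in probes only, which cover a small share of each promoter.

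All 86 probes passed the filter on dim input, and none of their spots was saturated. One GFRA1 spot was marked as an outlier and left out. Input signal was not well above background at 14 spots of GFRA1, and ChIP signal at 5 spots of GFRA1, 1 of KIT and 3 of LDHC. Over whole arrays, 97.1% to 99.9% of probes passed the scanner's background flag in input, and no less than 93.9% in ChIP. Spots of the same sequence printed on an array differed by a median of 0.09 log2 units over 1593 sequences, and by 0.11 over the 4 such sequences of GFRA1 and MAEL, with a largest difference of 0.78.

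At GFRA1 the high-fertile bulls HF3 and HF5 had the highest ratios of the 6 bulls, in both marks. For H3K4me2, GFRA1 measured 0.10 in SF1, -0.37 in SF4 and -0.35 in SF5, against -0.30 in HF2, 0.58 in HF3 and 1.38 in HF5. For H3K27me3 it measured 0.36, -0.48 and -0.32 in SF1, SF4 and SF5, against -0.20, 1.38 and 1.33 in HF2, HF3 and HF5. HF3 and HF5 lay above every subfertile bull in both marks, while HF2 lay among the subfertile bulls, so the groups overlapped. The means for H3K4me2 were -0.21 ± 0.26 in SF and 0.55 ± 0.84 in HF bulls (SD, n = 3 each), so SF minus HF was -0.76 (95% interval -1.94 to 0.42; limma, unadjusted p = 0.178, adjusted p = 1.00). For H3K27me3 they were -0.15 ± 0.45 and 0.84 ± 0.90 in SF and HF bulls, so SF minus HF was -0.98 (interval -2.19 to 0.22; limma, unadjusted p = 0.0975, adjusted p = 1.00). In each of the 6 bulls both marks had the same sign at GFRA1, beside 71.2% of pairs over all genes and bulls. The size of these differences depended on how probes and bulls entered. With each run of overlapping probes counted once they were -0.37 for H3K4me2 and -0.55 for H3K27me3 (an alternative chosen after seeing the data). The median of probes gave -0.38 for H3K4me2 and -1.13 for H3K27me3. With the mean of probes, leaving out HF5 gave -0.35 and -0.74, and leaving out HF2 gave -1.19 and -1.50.

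The high values of GFRA1 came from particular stretches. In the run of 13 probes that starts 1668 bases from the first probe, H3K4me2 averaged 1.01, -0.14 and -0.99 in SF1, SF4 and SF5, against -0.68, 1.34 and 4.13 in HF2, HF3 and HF5. H3K27me3 there averaged 0.85, -0.23 and -0.38 in the same SF bulls, against -0.33, 2.67 and 3.36 in the HF bulls. HF5 had its highest run here in both marks, and HF3 had the second highest value of the 6 bulls. The probe at +1668, whose sequence is shown above, held the highest mean H3K4me2 of the gene, 1.07, and read 2.53 in HF3 and 3.73 in HF5. Overlapping probes could differ within a run. For H3K4me2, those of the run at +1668 ranged from -0.42 to 2.53 in HF3 and from 3.37 to 4.63 in HF5. The probes of the run at +0 ranged from -1.74 to 4.08 in HF5 for this mark. Further along, the 7 probes from +3076 measured 1.51 (H3K4me2) and 2.45 (H3K27me3) in HF3 but -0.95 and -1.09 in HF5, so the elevated stretches of these bulls coincided only in part. Input in the run at +1668 was -3.37 in HF3 and -3.04 in SF1, the lowest of the 6 bulls, and -1.77 in HF5; the part of input in these ratios was not tested. For this run the SF minus HF difference was -1.64 for H3K4me2 (limma over 35951 runs, unadjusted p = 0.188, adjusted p = 1.00) and -1.82 for H3K27me3 (unadjusted p = 0.0951, adjusted p = 1.00).

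**Figure D1:**
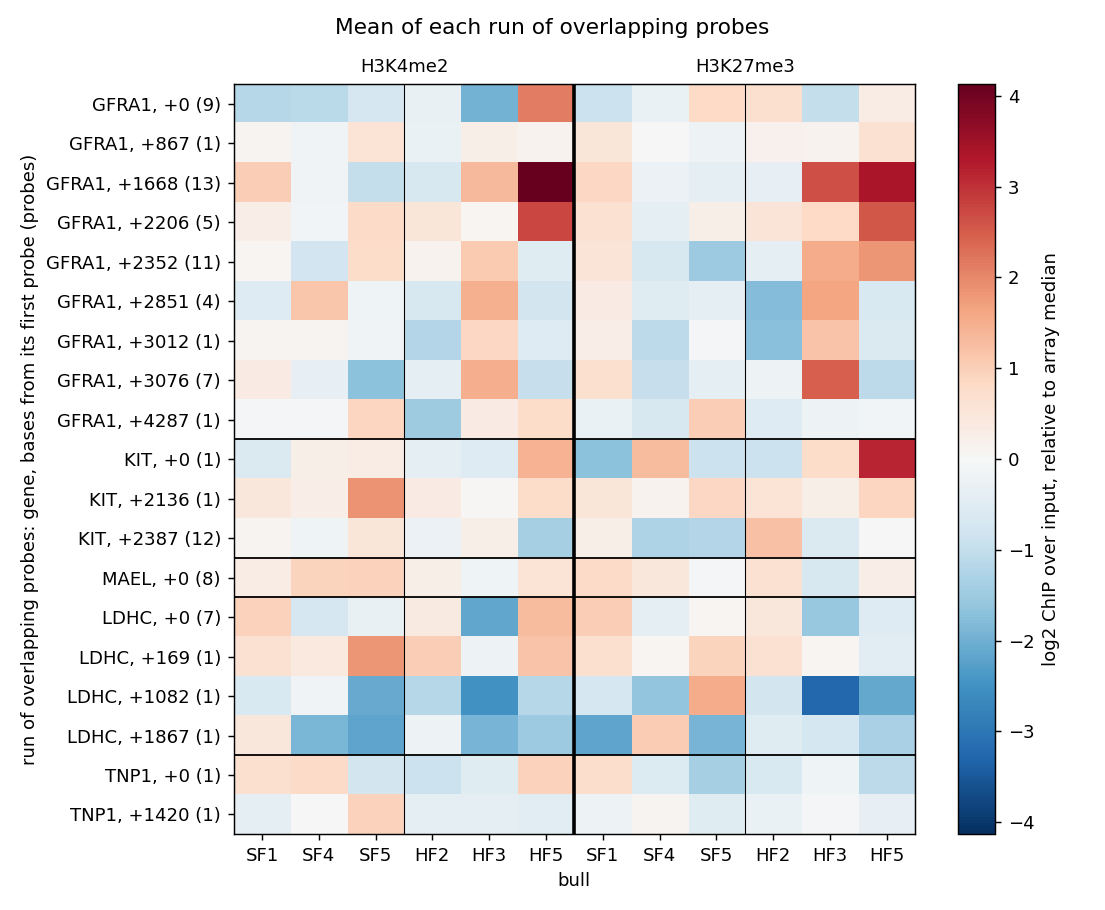
Mean log2 ratio of ChIP over input in each of the 19 runs of overlapping probes (down the page: gene, bases from its first probe, number of probes) for each bull (across, SF before HF), with H3K4me2 on the left and H3K27me3 on the right. Red is above and blue below the array median; the deepest red is the GFRA1 run at +1668 in HF5 for H3K4me2, 4.13.

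At KIT the group means stood in opposite orders in the 2 marks, though the groups overlapped in both. For H3K4me2, KIT measured 0.09 in SF1, -0.11 in SF4 and 0.59 in SF5, against -0.20 in HF2, 0.17 in HF3 and -1.01 in HF5. For H3K27me3 it measured 0.13, -0.98 and -1.04 in SF1, SF4 and SF5, against 1.01, -0.45 and 0.29 in HF2, HF3 and HF5. HF2 stood at the 96.4th percentile of genes for H3K27me3, the highest place any of the 5 genes took on an array, and SF4 and SF5 stood at the 8.36th and 8.35th. The H3K4me2 means were 0.19 ± 0.36 in SF and -0.35 ± 0.61 in HF bulls, a difference of 0.54 (interval -0.54 to 1.62; limma, unadjusted p = 0.288, adjusted p = 1.00). The H3K27me3 means were -0.63 ± 0.66 in SF and 0.29 ± 0.73 in HF bulls, a difference of -0.92 (interval -2.12 to 0.28; limma, unadjusted p = 0.114, adjusted p = 1.00). The difference between these differences was 1.46 (interval -0.06 to 2.97; limma interaction, unadjusted p = 0.0579, adjusted p = 1.00), and with bull as a random replicate block it was also 1.46 (unadjusted p = 0.0220, adjusted p = 0.974). Without the block, the interaction had an unadjusted p under 0.05 at 0.661% of the 6805 genes, and 0% passed the correction. That share belongs to the fit without the block only. The p of 0.0220 has no share of all genes beside it here, so how rare it is cannot be read from these values. These values leaned on SF5 and HF5: without both bulls the KIT difference was 0.0021 for H3K4me2 (unadjusted p = 0.996), -0.71 for H3K27me3, and 0.71 in the interaction (limma, unadjusted p = 0.422, adjusted p = 1.00). Without HF5 alone the H3K4me2 difference was 0.20, without SF5 alone 0.34, and with each run counted once 0.30. The median of probes gave larger differences, 0.69 for H3K4me2 and -0.98 for H3K27me3. Within single bulls, H3K4me2 minus H3K27me3 at KIT was 0.87 in SF4 and 1.64 in SF5 and -0.035 in SF1, against -1.21 in HF2, -1.31 in HF5 and 0.62 in HF3.

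The 12 overlapping KIT probes that start 2387 bases from the first one carry most of its mean. For H3K4me2 in SF5 they ranged from -2.30 to 1.56. Their H3K27me3 averages were 0.25, -1.27 and -1.21 in SF1, SF4 and SF5, against 1.21, -0.60 and 0.01 in HF2, HF3 and HF5. The lone promoter probe at +0 behaved otherwise, with H3K27me3 values of -1.69, 1.32 and -0.90 in the SF bulls and -0.88, 0.75 and 3.15 in the HF bulls. The CpG island probe at +2136 was above the array median in all 6 bulls for both marks, between 0.04 and 1.84 for H3K4me2 and between 0.14 and 0.89 for H3K27me3. Its input was high in every bull, between 2.51 and 3.35 log2 units above the array median. When each run counted once, the mean of KIT over 6 bulls was 0.18 for both marks, against -0.08 for H3K4me2 and -0.17 for H3K27me3 when each probe counted once.

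MAEL lay above the array median in most bulls. For H3K4me2, MAEL measured 0.31 in SF1, 0.91 in SF4 and 0.97 in SF5, against 0.24 in HF2, -0.19 in HF3 and 0.56 in HF5. For H3K27me3 it measured 0.80, 0.48 and -0.07 in SF1, SF4 and SF5, against 0.62, -0.67 and 0.28 in HF2, HF3 and HF5. HF3 was the lowest bull in both marks, and the groups overlapped in both. The mean H3K4me2 ratio over 6 bulls was 0.46 ± 0.44, positive in 5 of 6 bulls (limma against the array median, unadjusted p = 0.0599, adjusted p = 0.893); 5.11% of genes had an unadjusted p under 0.05 there and 0% an adjusted one. The SF minus HF difference was 0.52 for H3K4me2 (0.73 ± 0.36 in SF and 0.20 ± 0.38 in HF bulls; interval -0.47 to 1.52; limma, unadjusted p = 0.262, adjusted p = 1.00). For H3K27me3 it was 0.33 (0.40 ± 0.44 in SF and 0.08 ± 0.67 in HF bulls; interval -0.75 to 1.40; limma, unadjusted p = 0.502, adjusted p = 1.00), and without HF3 it was -0.045. Within the 89 bases the probe at +17, shown above, had the highest mean in both marks, 0.58 and 0.39.

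LDHC spread most between bulls for H3K4me2. For H3K4me2, LDHC measured 0.71 in SF1, -0.66 in SF4 and -0.46 in SF5, against 0.23 in HF2, -1.97 in HF3 and 0.78 in HF5. For H3K27me3 it measured 0.48, -0.31 and 0.11 in SF1, SF4 and SF5, against 0.25, -1.49 and -0.77 in HF2, HF3 and HF5. HF3 was the lowest bull in both marks, at the 2.04th percentile of genes for H3K4me2 and the 5.58th for H3K27me3. The SD of LDHC over the 6 bulls was 1.03 for H3K4me2, wider than in 82.7% of genes, and 0.74 for H3K27me3, wider than in 65.3%. The SF minus HF difference was 0.19 for H3K4me2 (-0.14 ± 0.74 in SF and -0.32 ± 1.45 in HF bulls; interval -1.51 to 1.88; limma, unadjusted p = 0.810, adjusted p = 1.00), and it was -0.64 without HF3 and -0.24 without SF1. For H3K27me3 the difference was 0.76 (0.09 ± 0.40 in SF and -0.67 ± 0.88 in HF bulls; interval -0.42 to 1.94; limma, unadjusted p = 0.176, adjusted p = 1.00). It was 0.35 without HF3, 1.22 without HF2 (limma, unadjusted p = 0.0394, adjusted p = 0.858), and 0.29 with the averaged input of the 6 bulls. The 1.22 was the largest of the 6 estimates with 1 bull left out. Its p has no share of all genes beside it here, so how rare it is cannot be read from these values.

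The LDHC probes fell apart by position. The CpG island probe at +169 had the highest mean of the gene in both marks, 0.81 for H3K4me2 and 0.31 for H3K27me3, and the promoter probe at +1082 the lowest, -1.28 and -1.15. At +1082, H3K27me3 measured -0.68, -1.62 and 1.52 in SF1, SF4 and SF5, against -0.75, -3.26 and -2.11 in HF2, HF3 and HF5. The groups overlapped there through SF4, and the difference of 1.78 did not pass the correction (limma over 35951 runs, unadjusted p = 0.0988, adjusted p = 1.00).

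TNP1, the only one of the 5 without a CpG island probe, had values on both sides of the array median in each mark, with means over the 6 bulls of -0.04 for H3K4me2 and -0.37 for H3K27me3. For H3K4me2, TNP1 measured 0.13 in SF1, 0.37 in SF4 and 0.09 in SF5, against -0.64 in HF2, -0.46 in HF3 and 0.26 in HF5. For H3K27me3 it measured 0.25, -0.23 and -0.94 in SF1, SF4 and SF5, against -0.46, -0.13 and -0.71 in HF2, HF3 and HF5. All 3 SF bulls were above the median for H3K4me2, but HF5 lay between them, so the groups overlapped. The difference was 0.48 for H3K4me2 (0.20 ± 0.15 in SF and -0.28 ± 0.48 in HF bulls; interval -0.51 to 1.46; limma, unadjusted p = 0.30, adjusted p = 1.00). For H3K27me3 it was 0.13 (-0.31 ± 0.60 in SF and -0.43 ± 0.29 in HF bulls; interval -0.86 to 1.12; limma, unadjusted p = 0.774, adjusted p = 1.00). The mean H3K27me3 ratio over 6 bulls was -0.37 ± 0.43, positive in 1 of 6 bulls (limma against the array median, unadjusted p = 0.101, adjusted p = 0.908); for this mark 5.72% of genes had an unadjusted p under 0.05 and 0% an adjusted one. The probe at +1420 measured -0.39, -0.03 and 0.95 for H3K4me2 in SF1, SF4 and SF5, against -0.41, -0.42 and -0.44 in HF2, HF3 and HF5, so the SF bulls lay above the HF bulls there, SF1 by a small margin (difference 0.60, limma over 35951 runs, unadjusted p = 0.327, adjusted p = 1.00). It was the only 1 of the 19 runs whose groups did not overlap for H3K4me2, beside 7.06% of all runs, and 0 of the 19 did so for H3K27me3, beside 8.01%. The gene rests on 2 probes, and adjustment for the G and C content of probes moved its mean H3K4me2 ratio to 0.32, against -0.04 without it.

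**Figure D2:**
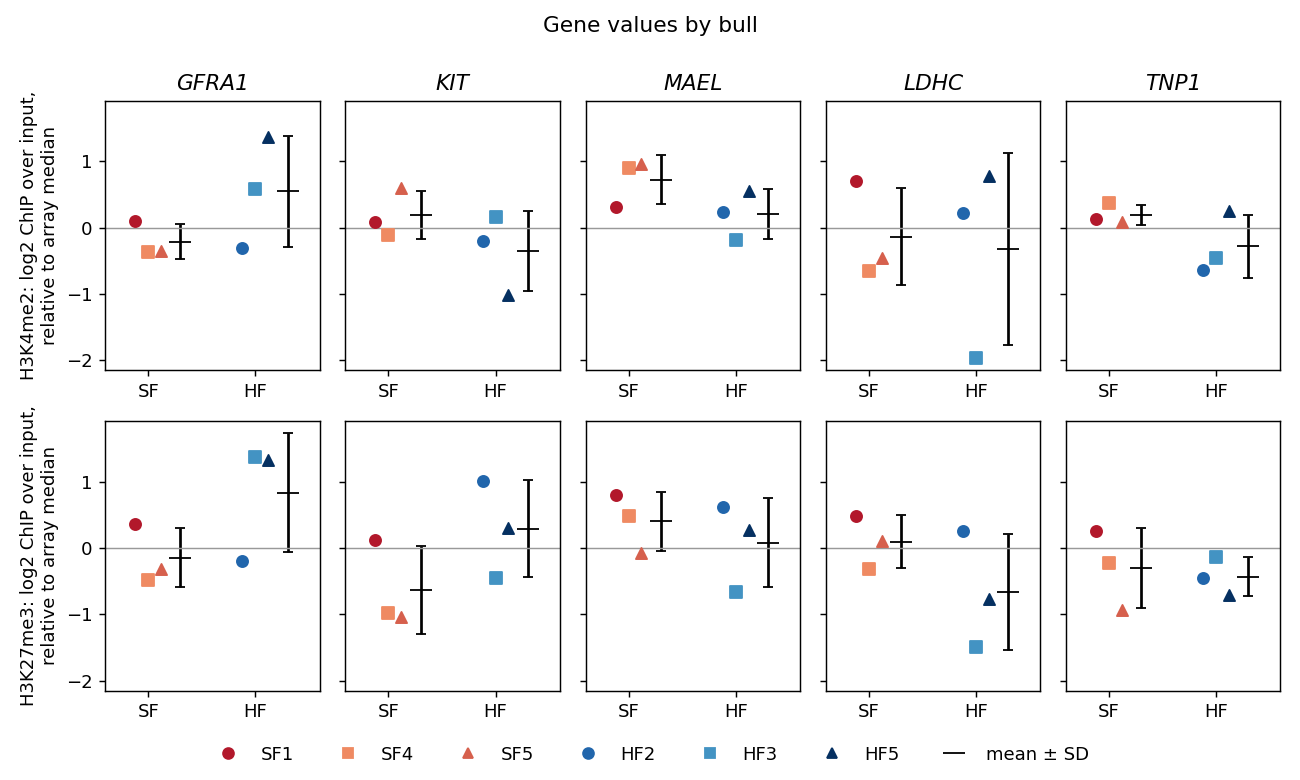
Log2 ratio of ChIP over input (vertical axes, relative to the array median) of the 5 genes in each bull, SF left of HF, with H3K4me2 above and H3K27me3 below; bars are the mean ± SD of 3 bulls. SF and HF bulls overlap in every panel, and the lowest point is LDHC in HF3 for H3K4me2, -1.97.

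In input DNA, TNP1 alone of the 5 genes separated the groups. Its input signal was -1.35, -1.19 and -1.11 log2 units relative to the array median in SF1, SF4 and SF5, against -0.78, -0.57 and -0.81 in HF2, HF3 and HF5. Every SF bull lay below every HF bull, as was so for 3.17% of genes, and 7.77% of genes separated the groups in either direction. The means were -1.22 ± 0.12 in SF and -0.72 ± 0.13 in HF bulls, a difference of -0.50 (interval -1.13 to 0.13; limma, unadjusted p = 0.103, adjusted p = 0.997). By probe, the groups separated in input only at +0, with -1.84, -1.26 and -1.27 in SF1, SF4 and SF5 against -0.76, -0.24 and -0.75 in HF2, HF3 and HF5. At +1420 SF1 (-0.87) lay above HF3 (-0.89), so the groups overlapped there. When each bull's own input was replaced by the input averaged over bulls, the SF minus HF difference of TNP1 was -0.050 for H3K4me2 and -0.44 for H3K27me3, so the order of the groups turned in both marks. LDHC had its highest input in HF3, 0.87, the bull with the lowest LDHC ratios, and GFRA1 its lowest input in HF3, -1.44. With the averaged input, LDHC differed by -0.33 for H3K4me2, against 0.19 with each bull's own input.

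**Figure D3:**
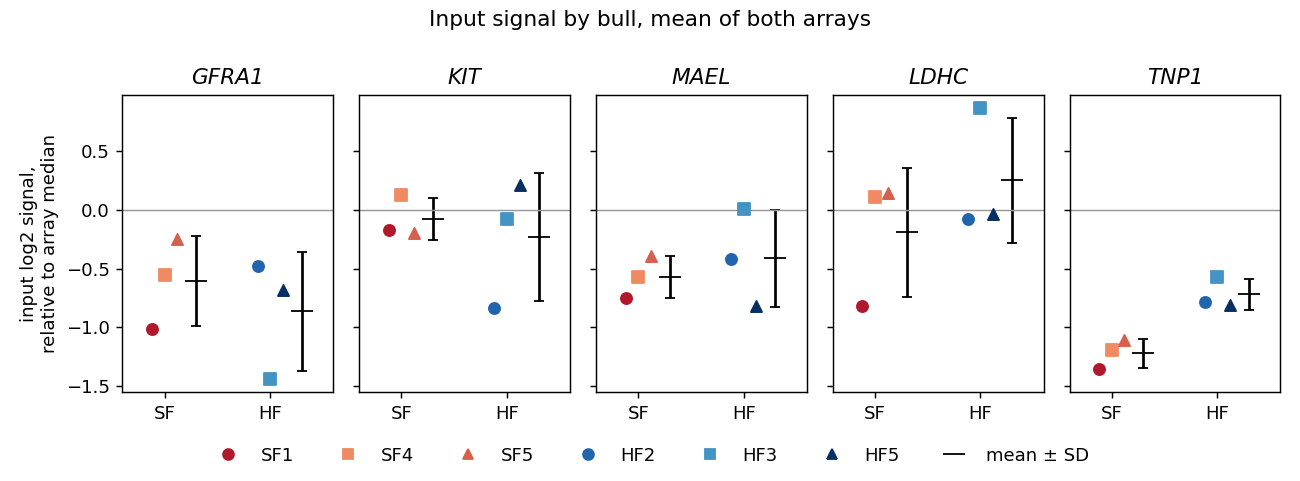
Log2 input signal (vertical axis, relative to the array median, mean of the 2 arrays of a bull) of the 5 genes, SF left of HF, with bars for the mean ± SD of 3 bulls. TNP1 is the only gene in which every SF bull, from -1.35 to -1.11, lies below every HF bull, from -0.81 to -0.57.

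Over the 5 genes, none passed the correction in the SF against HF comparison of either mark, and all 5 overlapped between groups in both marks. Limma called 0% of the 6805 genes at an adjusted p of 0.05 in either mark or in input, and 0% of probes and runs. At an unadjusted 0.05 it counted 2.91% of genes for H3K4me2 and 4.07% for H3K27me3, and 0 of the 5 genes described here. In input it counted 3.54% of genes and 0 of the 5. The ratios of the groups did not overlap in 6.58% (H3K4me2) and 8.57% (H3K27me3) of genes. Of the 85 probes with a value on every array, 5 did not overlap between groups for H3K4me2 and 4 for H3K27me3, against 7.17% and 8.03% of all 175796 such probes. These were 2 probes each in GFRA1 and MAEL and 1 in TNP1 for H3K4me2, and 2 each in GFRA1 and KIT for H3K27me3. At an unadjusted 0.05 limma counted 0 of these 85 probes for H3K4me2 and 2 for H3K27me3, beside 3.01% and 4.31% of all probes, and 0 of the 19 runs in either mark, beside 2.87% and 4.22% of all runs. The smallest unadjusted p of a probe was 0.0179, at GFRA1 37096709 to 37096768 for H3K27me3 (adjusted p = 1.00). With 3 bulls a group, a typical gene's 95% interval (median) extended ±1.20 log2 units for H3K4me2 and ±1.10 for H3K27me3. Smaller differences would not reach an unadjusted 0.05 at such a gene. These intervals are not adjusted for the number of genes, so a difference must be larger still to pass the correction. An exact permutation test of 3 against 3 bulls cannot give a two-sided p under 0.1. Only SF1 and HF5 shared a slide of the 5; SF1 minus HF5 was -1.28 at GFRA1, 1.10 at KIT, -0.25 at MAEL, -0.07 at LDHC and -0.13 at TNP1 for H3K4me2, and -0.97, -0.17, 0.53, 1.25 and 0.97 for H3K27me3 in the same order. Elsewhere slide and bull cannot be told apart.

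**Figure D4:**
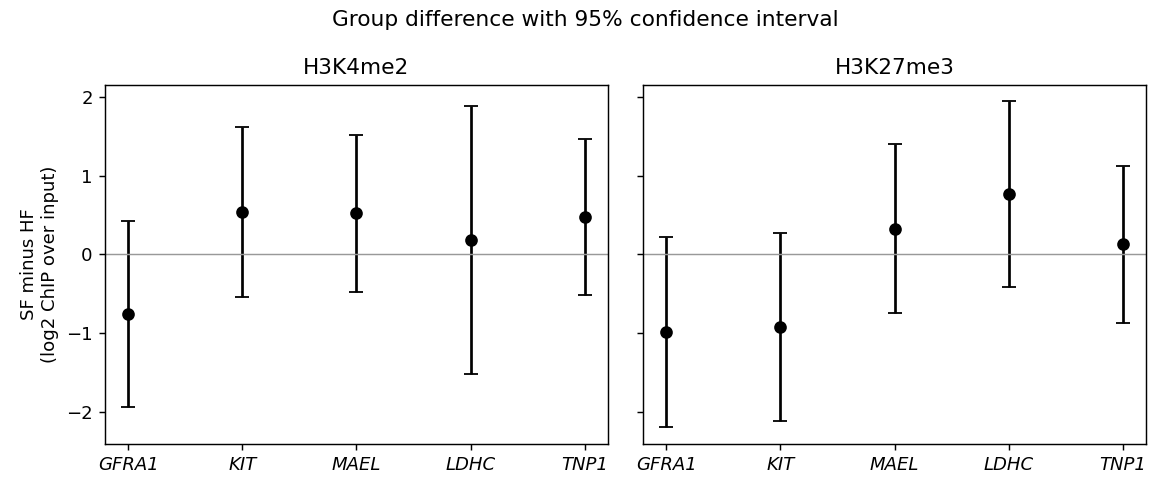
SF minus HF difference in the log2 ratio of ChIP over input (vertical axis) of the 5 genes for H3K4me2 (left) and H3K27me3 (right), points with 95% confidence intervals from limma, n = 3 bulls each. Every interval includes 0, and GFRA1 lies at -0.76 for H3K4me2 and -0.98 for H3K27me3.

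The signs of the 2 marks of a bull matched at a share near that of all genes. H3K4me2 and H3K27me3 had the same sign in 6 of 6 bulls at GFRA1, 5 at MAEL, 4 at LDHC, 3 at TNP1 and 2 at KIT. That is 20 of 30 pairs of gene and bull, 66.7%, beside 71.2% over all genes and bulls. Both arrays of a bull share its input. How many of all genes reach the counts of GFRA1 or KIT is not given here, so these counts are descriptions. The mean H3K4me2 minus H3K27me3 over 6 bulls was -0.17 at GFRA1 (0.17 ± 0.69 for H3K4me2 and 0.34 ± 0.83 for H3K27me3). It was 0.09 at KIT, 0.22 at MAEL, 0.06 at LDHC and 0.33 at TNP1, and limma called 0 of the 5 (adjusted p = 1.00 each), as it called 0% of all genes. At an unadjusted 0.05 it counted 0 of the 5, beside 0.661% of all genes. This fit treated the 2 arrays of a bull as independent, though limma's consensus correlation between them was 0.57. It can therefore miss differences between marks that are steady within bulls, and the 0.661% carries the same limit. These counts do not show that the marks were alike. With bull as a replicate block no call changed. The SD between bulls was wider for H3K27me3 than for H3K4me2 in GFRA1 (0.83 and 0.69), KIT (0.80 and 0.54), MAEL (0.54 and 0.44) and TNP1 (0.43 and 0.41), and narrower in LDHC. Over all genes the median SD was narrower for H3K27me3, 0.60, than for H3K4me2, 0.64.

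The genes whose values over the 12 arrays were most like those of each gene were found among 4297 candidates (4298 for TNP1) by Pearson's r. For GFRA1 these were the homeobox gene HOXB9 (r = 0.93), TMEM184B (0.92) and the importin gene KPNA3 (0.91). For KIT they were the integrin gene ITGA6 (0.85), the small GTPase gene RHEB (0.83) and TBC1D2 (0.81). MAEL was closest to MOCOS (0.90), FGF12 (0.90) and TIA1 (0.86), which encodes an RNA-binding protein. LDHC was closest to the kinase gene STK39 (0.95), IL17RD (0.92) and AGBL5 (0.89), and TNP1 to ZNF45, SLC25A39 and the homeobox gene LHX5 (all 0.80). The 12 arrays come from 6 bulls whose 2 arrays share input, and only the highest of all the correlations are given, so these are descriptions.

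Lists of genes of the same pathways were fixed with earlier results of these data known, and no gene in them passed the correction. The 5 genes described above are themselves in these lists, each in that of its own pathway. The counts and medians below therefore include them, except in the meiosis list, which holds none of them. Of the stem cell and GDNF signalling list, 9 of 18 genes could be measured, and 5 had positive and 4 negative SF minus HF differences for H3K4me2 (median 0.019, against 0.018 over all genes, of which 51.8% were positive). For H3K27me3 there were 3 and 6 (median -0.22, against -0.0073 over all genes, of which 49.3% were positive). THY1, a surface protein of mouse spermatogonial stem cells, averaged -0.36 ± 0.24 in SF and 0.50 ± 0.19 in HF bulls for H3K4me2, a difference of -0.86 (limma, unadjusted p = 0.0631, adjusted p = 1.00). For H3K27me3 the THY1 difference was -0.70 (unadjusted p = 0.217). Of the differentiation and KIT signalling list, 5 of 14 could be measured, 3 positive and 2 negative in each mark (medians 0.015 and 0.07). CCND2, a cyclin of dividing spermatogonia, differed by -0.24 for H3K4me2 and -0.40 for H3K27me3 (limma, adjusted p = 1.00 each).

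Of the meiosis list, 9 of 23 genes could be measured, 6 positive and 3 negative for H3K4me2 (median 0.13) and 4 and 5 for H3K27me3 (median -0.03). MSH5, a protein of the meiotic crossover machinery, differed by 1.54 for H3K4me2 and 1.01 for H3K27me3 on 2 probes, and DMC1, the meiotic recombinase, by -0.94 for H3K27me3 (limma, adjusted p = 1.00 each). Of the piRNA list, 6 of 18 could be measured, 4 positive and 2 negative in both marks (medians 0.06 and 0.36), and GTSF1, a piRNA factor, differed by 1.28 for H3K4me2 and 0.86 for H3K27me3 (limma, unadjusted p = 0.0944 and 0.120). TDRKH, a Tudor protein of the pathway, differed by 0.66 for H3K27me3 (unadjusted p = 0.156). Of the spermatid chromatin list, 3 of 16 could be measured, TNP1 among them. For H3K4me2, 2 were positive and 1 negative (median 0.31), and for H3K27me3 1 and 2 (median -0.74). CREM, the transcription factor of round spermatids, differed by -0.74 for H3K27me3 (limma, unadjusted p = 0.121), and TBPL1, a TBP relative needed by mouse spermatids, by -0.56 for H3K4me2 and -0.74 for H3K27me3. Of the lactate dehydrogenase and glycolysis list, 9 of 14 could be measured, 6 positive and 3 negative for H3K4me2 (median 0.12) and 5 and 4 for H3K27me3 (median 0.06). SLC16A1, a lactate transporter, differed by 0.61 and the glycolysis enzyme GPI by 0.44 for H3K4me2, and GPI by -0.31 for H3K27me3 (adjusted p = 1.00 each).

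Since DNA was measured and not RNA, the purity of the sperm could not be read from expression. Of the spermatid and sperm genes 3 of 7 could be measured, TNP1 among them. Their median log2 ratio in a bull was 0.09 to 0.13 in SF and -0.46 to 0.59 in HF bulls for H3K4me2, and -0.94 to -0.10 and -0.52 to 0.14 for H3K27me3. That of 2 of 8 leukocyte genes was -0.08 to 0.60 in SF and -0.70 to 0.36 in HF bulls for H3K4me2, and -0.30 to 0.56 and -0.60 to 0.39 for H3K27me3. For 5 of 7 epithelial genes it was 0.01 to 1.28 in SF and -0.15 to 0.58 in HF bulls for H3K4me2, and -0.71 to 0.59 and -0.22 to 0.10 for H3K27me3. For 5 of 12 somatic testis genes it was -0.23 to 0.28 in SF and -0.26 to 0.20 in HF bulls for H3K4me2, and -0.23 to 0.67 and -0.50 to 0.15 for H3K27me3. The groups overlapped in the median of every list. Within the somatic testis list HSD3B1, a steroidogenic enzyme measured by 2 probes, averaged 0.60 ± 0.58 in SF and -0.89 ± 0.62 in HF bulls for H3K4me2, a difference of 1.49 (interval 0.33 to 2.65; limma, unadjusted p = 0.0175, adjusted p = 1.00), the smallest p of the marker genes named by the same rule. Its H3K27me3 difference was 0.59 (limma, unadjusted p = 0.291, adjusted p = 1.00). The rest of that list went the other way for H3K4me2. Of its 5 measured genes only HSD3B1 had a positive difference and 4 had a negative one (median -0.40, against 0.018 over all genes). FSHR differed by -1.49 (limma, unadjusted p = 0.335). These values are ratios of marks in DNA, and the part of other cells in the ratios was not tested.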

How the data were processed

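The 12 arrays are scanner files of Agilent 2-colour ChIP-on-chip. The authors read each spot's intensity in either colour from the scans with Feature Extraction 10.7, per the submitters' processing notes (10.7.3.1 per the file headers), with background and dye bias already handled, and the deposited log10 ratio per spot lay within 0.02 of log2 of the processed Cy5 over Cy3 signal, once put on that scale, at 99.98% of spots. Flags of 0 and 1 per spot, which enter here as a score of quality, are in the same files per the file headers. A deposited table holds the authors' log2 ratios of ChIP over input; its values matched 177439 probes and served as an alternative, and how it was corrected is not given in the sources used here.

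Here log2 ratios were computed without a pseudocount, outlier spots were left out (13 to 546 per array), 177372 of 177440 probes whose input passed the background flag on 6 or more arrays of the 12 were kept, and each array was centred on its median. A gene was the mean of at least 2 kept probes (6805 genes). Two-sided limma fits (version 3.58.1, R 4.3.3; lmFit, then eBayes) compared the groups over all genes, with Benjamini-Hochberg adjustment and a threshold of 0.05, also for probes and for 35951 runs of overlapping probes; the fits were tested on simulated data. Equal numbers within a fertility group mark the same bull: inputs of its 2 arrays, as deviations from the mean, correlated at 0.937 to 0.985, and deviations of its ratios from the group mean at 0.317 to 0.747. No ratio has a depth; the number of arrays limits the precision. The 5 genes, the lists and the rule for named genes (the 5 genes, the 3 most correlated genes of each, the 2 smallest p per list, and the highest and lowest probe of each gene) were chosen with earlier results of these data known. The motif search planned for promoter windows was made in the probes, since no promoter sequences were used here. Of the 5 symbols, 4 had an entry in the buffalo RefSeq table. Some genes and sequences that these rules choose are not reported here.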

Additional observations from a re-analysis of the deposited data

Results flagged for a closer look

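LDHC was flagged because 1 bull stood far from the others. Its H3K4me2 minus H3K27me3 was 0.22 in SF1, -0.34 in SF4 and -0.57 in SF5, against -0.03 in HF2, -0.48 in HF3 and 1.55 in HF5. The gap between HF5 and the nearest bull was 0.626 of the whole range, just past Dixon's 95% limit for 6 values. Of 15 such sets of 6 bulls this was the only one past the limit, and chance flags about 1 in 20.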

How the results depend on the processing

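No gene was called by limma in any comparison under any of the alternatives run (0 of the genes tested in 102 recounts), so no call changed, and the lowest adjusted p of a member under any setting was 0.629. The limits are 3 bulls per group, probes designed on cattle DNA, no dye swap, and slides that hold 1 bull each but for that of SF1 and HF5. Estimates did move, by sign or in size, in the cases that follow. After within-array loess TNP1 H3K4me2 over input was 0.056, and in the deposited table it was 0.061 and LDHC H3K4me2 minus H3K27me3 -0.0070. With probe G and C content adjusted, TNP1 SF minus HF for H3K27me3 was -0.019, and over input for H3K4me2 KIT was 0.013 and TNP1 0.32. With the median of probes KIT H3K4me2 minus H3K27me3 was -0.016. With runs averaged first, an alternative chosen after seeing the data, KIT over input was 0.18 for H3K4me2 and 0.18 for H3K27me3, and SF minus HF at GFRA1 was -0.37 and -0.55. With the mean input of 6 bulls, SF minus HF was -0.050 (TNP1) and -0.33 (LDHC) for H3K4me2 and -0.44 (TNP1) for H3K27me3. Without HF5 and SF5 the interaction was -0.083 for MAEL and 0.19 for LDHC, KIT for H3K4me2 was 0.0021, and GFRA1 -0.28. Within the slide of SF1 and HF5 the sign turned for MAEL (-0.25), TNP1 (-0.13) and LDHC (-0.071) in H3K4me2, and held but the size changed for KIT (1.10 for H3K4me2, -0.17 for H3K27me3) and TNP1 (0.97 for H3K27me3). The cause of these changes was not tested. As a replicate block, bull left every estimate in place; H3K4me2 minus H3K27me3 at TNP1 stayed at 0.33 with an adjusted p of 0.928, and the SF minus HF differences at GFRA1 stayed at -0.76 and -0.98; it changed no call.

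Leaving out each bull in turn turned the sign of 16 of 35 values. SF minus HF ranged from -0.64 to 0.73 for LDHC in H3K4me2 (turned without HF3 or SF1), and for H3K27me3 from -0.045 to 0.60 in MAEL (HF3) and from -0.15 to 0.45 in TNP1 (HF5 or SF1). H3K4me2 minus H3K27me3 ranged from -0.21 to 0.38 in KIT (HF3, SF4 or SF5) and from -0.24 to 0.19 in LDHC (HF5). The interaction ranged from -0.032 to 0.39 in GFRA1 (HF3), -0.16 to 0.60 in MAEL (HF2 or SF5) and -0.99 to 0.024 in LDHC (HF5). H3K4me2 over input ranged from -0.069 to 0.28 in GFRA1 (HF5), -0.21 to 0.11 in KIT (HF5), -0.13 to 0.078 in TNP1 (HF2 or HF3) and -0.43 to 0.12 in LDHC (HF3), and H3K27me3 over input from -0.41 to 0.00089 in KIT (SF5). SF minus HF in input ranged from -0.029 to 0.46 in GFRA1 (HF3), -0.15 to 0.38 in KIT (HF2) and -0.37 to 0.047 in MAEL (HF3). The SF minus HF signs of GFRA1 and KIT in both marks held without any single bull, from -1.19 to -0.35 and 0.20 to 0.80 for H3K4me2 and from -1.50 to -0.71 and -1.30 to -0.56 for H3K27me3. So did those of MAEL (0.33 to 0.73) and TNP1 (0.30 to 0.75) for H3K4me2 and of LDHC (0.35 to 1.22) for H3K27me3.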

Other observations

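In the mean ratio over 6 bulls, ALDOA, an aldolase of glycolysis, averaged -0.44 for H3K27me3 (limma against the array median, unadjusted p = 0.0298, adjusted p = 0.859). It did not pass the correction, and 5.72% of all genes had an unadjusted p under 0.05 there.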
